A study of Mus musculus with 54 samples.

Results

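Connecting tubule cells and nuclei were taken here as the 10x barcodes that held at least 1 UMI of Slc8a1 and at least 1 UMI of Calb1, with 0 UMIs of Slc12a3 and of Slc12a1. A UMI is a molecular tag that marks 1 captured RNA molecule. In all, 2193 of 175959 barcodes (1.25%) in 39 libraries met the rule, of which 1660 were nuclei and 533 were cells. The members were chosen by the counts of these 4 genes, so their levels are given below as a description without a test.

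The study compared ways of preparing adult mouse kidney for single-cell RNA-seq, with 3 libraries per condition. C57BL/6J males of 19 weeks, AFAPIL.1DEL littermates with no experimental treatment, were dissociated warm (enzymes at 37 °C) or cold (a cold-active protease on ice), and each suspension was run fresh, cryopreserved in DMSO medium or fixed in methanol. Untreated Balb/c littermate males of 18 weeks gave cold-dissociated fresh cells, nuclei from frozen kidney sorted after washing by the SN_FANS_3x500g protocol, and bulk RNA-seq of intact kidney. Untreated wild type Balb/c females of 15 weeks, earlier used as breeders, gave cold-dissociated fresh and cryopreserved cells and bulk RNA-seq. They also gave nuclei by SN_FANS_3x500g, by SN_FANS_1x2000g (sorted after a single faster spin) and by SN_sucrose (a sucrose gradient). The males were run with 10x chemistry version 2 and the females with version 3, and the experiments ran in batches separated in time. Sex, age, strain, breeding history, chemistry and batch therefore cannot be told apart between the experiments. The suspensions were made from whole kidney, so a share of barcodes depends on which cells the dissociation released and the storage kept.

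The connecting tubule joins the distal convoluted tubule to the collecting duct. Its cells take up calcium through the apical channel Trpv5, carry it on the calcium-binding proteins Calb1 and S100g, and return it to the blood through the sodium/calcium exchanger Slc8a1 and the calcium pumps Atp2b1 and Atp2b4. They also take up sodium through the epithelial sodium channel ENaC (Scnn1a, Scnn1b, Scnn1g) under aldosterone, for which Nr3c2 is the receptor and Hsd11b2 the enzyme that protects it from glucocorticoids, and they secrete potassium through Kcnj1. They are the main renal source of tissue kallikrein, Klk1. Slc12a3 is the thiazide-sensitive cotransporter of the distal convoluted tubule, and Slc12a1 is the furosemide-sensitive one of the thick ascending limb.

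Most members held another gene used here as a marker of this segment. Of the 2193 members, 2021 (92.2%) held at least 1 UMI of another connecting tubule gene, with 99.2% of cells and 89.9% of nuclei. The genes counted were Klk1, Trpv5, S100g, Scnn1b, Scnn1g and Hsd11b2. In female fresh cells the means of Hsd11b2, Scnn1b and Scnn1g were higher in principal barcodes of the collecting duct than in members (given below). The share of other barcodes with such a gene is not given, so 92.2% does not set members apart from neighbouring cells. The share was lowest in female SN_FANS_3x500g nuclei, at 349 of 442 members (79.0%), against 93.3% in SN_FANS_1x2000g and 95.8% in SN_sucrose nuclei. The 93 SN_FANS_3x500g members without another marker held between 1.48 and 1.95 Slc8a1 UMIs each, by library, and Lrp2, the proximal tubule endocytic receptor, was detected in 50.0% to 75.9% of them. Members of the same libraries with another marker held 37.2 to 74.4 Slc8a1 UMIs each, and Lrp2 was detected in 32.4% to 45.0%. Slc8a1 is a rule gene, so its counts only describe these members. Klk1 is among the other markers, and its detection in proximal barcodes was also lowest in SN_FANS_3x500g libraries (given below). How far the shares of members with another marker follow that detection was not tested. The label is less sure for members without another marker, and the fits below were repeated on members with another marker.

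The threshold fell differently in cells and nuclei. Calb1 was counted exactly once in 56.1% of member nuclei and in 7.13% of member cells, whereas Slc8a1 was counted exactly once in 17.3% of nuclei and in 56.3% of cells. In female SN_FANS_3x500g nuclei 2247 barcodes held both Slc8a1 and Calb1, of which 442 were members, 915 also held Slc12a3 (72 of them with 1 UMI), 316 also held Slc12a1 (178 with 1 UMI) and 574 held both. In female fresh cells 697 barcodes held both genes, of which 364 were members, 289 also held Slc12a3 (37 with 1 UMI), 22 also held Slc12a1 (19 with 1 UMI) and 22 held both.

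The libraries held 782 to 9308 barcodes and up to 256 members each. The median member of the female libraries held 4411 to 5930 UMIs in fresh cells, above library medians of 2293 to 2990.5, and 2724 to 3313 UMIs in nuclei, below library medians of 3108.5 to 3893.5. Male Balb/c member nuclei were shallower, at 688 to 728.5 UMIs. Over the 741 pairs of libraries the median number of shared barcode sequences was 2, and the highest was 101 (2.05% of the smaller library). No sequence was a member in more than 1 library, and 71 members (3.24%) had a sequence that also occurred in another library. No doublet caller was run, and members of high UMI count are treated below.

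Among female fresh cells, the levels of the segment's genes formed a gradient along the nephron. Levels are given as CPM, the UMIs of a gene over all UMIs summed over the barcodes of a population in a library, scaled to 1000000, as mean ± SD over 3 libraries. Members were set beside distal convoluted tubule barcodes (Slc12a3 and Trpm6, without Slc8a1 or Slc12a1), transition barcodes (Slc8a1, Calb1 and Slc12a3, without Slc12a1), principal barcodes of the collecting duct (Aqp2 and Fxyd4, without Slc8a1 or either cotransporter) and proximal barcodes (Lrp2 and Slc34a1, without the 4 rule genes). Because counts of these same barcodes chose each population, the differences were not tested.

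Klk1 stood at 69730 ± 13180 CPM in members, at 43886 ± 4365 CPM in transition barcodes, at 5422 ± 1250 CPM in distal convoluted tubule barcodes, at 3403 ± 2701 CPM in principal barcodes and at 89.4 ± 18.8 CPM in proximal barcodes. S100g followed the same order from members (25227 ± 2261 CPM) to transition barcodes (17190.2 ± 3086 CPM), with 1504 ± 364 CPM in distal convoluted tubule and 4319 ± 1616 CPM in principal barcodes. The lowest member library, at 54860 CPM of Klk1, lay far above the highest principal one, at 5077 CPM. Klk1 lies at chr7:44225360-44229618 on the plus strand and S100g at chrX:162961992-162964599 on the minus strand (GRCm38, GENCODE M21). Klk1 has close paralogs in its gene cluster, and how reads shared between them were counted is not given in the sources used here.

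The aldosterone-related genes were high in members and principal barcodes alike. Hsd11b2 stood at 2447 ± 313 CPM in members and 3313 ± 260 CPM in principal barcodes, against 139 ± 19.6 CPM in transition and 13.4 ± 8.80 CPM in distal convoluted tubule barcodes. Scnn1g stood at 235 ± 13.9 CPM in members and 260 ± 5.22 CPM in principal barcodes, where the libraries reached from 222 to 250 CPM in members and from 256 to 266 CPM in principal barcodes, and at 75.0 ± 4.82 CPM in transition barcodes. Aqp2, the vasopressin-regulated water channel, was detected in 73.3% of members at 1559 ± 225 CPM, and stood at 8188 ± 2554 CPM in principal barcodes, which were chosen for it. Pvalb, a calcium-binding protein of the early distal convoluted tubule, ran the other way, with 3072 ± 156 CPM in distal convoluted tubule, 1068 ± 133 CPM in transition and 8.14 ± 3.08 CPM in members. Rhbg, a basolateral ammonium transporter, stood at 497 ± 96.1 CPM in members and 250 ± 26.4 CPM in principal barcodes, and no member library was below 432 CPM or principal one above 277 CPM.

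**Figure D1:**
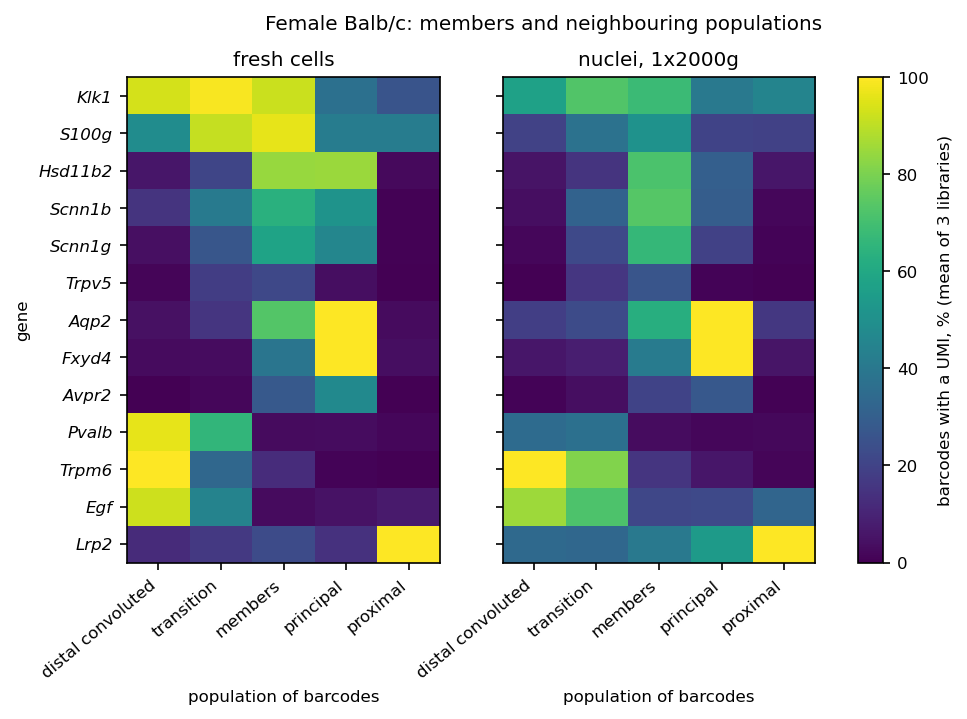
Percentage of barcodes with at least 1 UMI of each gene (rows; colour, mean of 3 libraries) in 5 populations of barcodes (columns) in female Balb/c fresh cells and SN_FANS_1x2000g nuclei. Klk1 was detected in 92.2% of member cells and 26.1% of proximal cells, and in 68.0% of member nuclei and 45.0% of proximal nuclei.

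In nuclei other genes stood higher in members than in the barcodes set beside them here. Distal convoluted tubule barcodes are not given in this paragraph, so its values do not compare members with that segment. In SN_FANS_1x2000g nuclei Egfem1 stood at 1377 ± 317 CPM in members and was detected in 45.8% of them, against 440 ± 144 CPM in transition, 51.6 ± 75.7 CPM in principal and 4.06 ± 1.44 CPM in proximal barcodes. Phactr1 stood at 4445 ± 344 CPM in members, 2825 ± 550 CPM in transition, 1193 ± 405 CPM in principal and 54.7 ± 10.6 CPM in proximal barcodes. Scnn1b stood at 757 ± 163 CPM in members and 155 ± 58.3 CPM in principal barcodes. In cells its means stood in the other order, with principal barcodes at 409 ± 55.1 CPM and members at 329 ± 47.7 CPM. Nr3c2 stood at 1934 ± 183 CPM in members and 697 ± 165 CPM in principal barcodes. Some genes were detected at like shares in members and proximal barcodes. Umod, made by the thick ascending limb, was detected in 62.1% of members and in 62.3% of proximal barcodes. Kap, a proximal tubule transcript, was detected in 98.7% of members and 99.1% of proximal barcodes. Whether free RNA or doublets gave these counts was not tested. Detection of Umod and Kap in members was therefore not taken as a trait of the members.

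Male Balb/c nuclei by SN_FANS_3x500g, from other animals and another chemistry, gave the same populations. In them Egfem1 stood at 2541 ± 862 CPM in members and 238 ± 41.2 CPM in principal barcodes, Phactr1 at 3704 ± 551 and 2071 ± 470 CPM, and Rhbg at 349 ± 83.7 and 65.5 ± 30.8 CPM. S100g stood at 731 ± 60.8 CPM in members and 60.4 ± 14.6 CPM in principal barcodes. Scnn1g was close in both, at 297 ± 51.4 CPM in members and 261 ± 45.5 CPM in principal barcodes.

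The members were not uniform in their calcium and water transport genes. Among the 1467 member nuclei of the females, 124 held Trpv5 without Aqp2, 690 held Aqp2 without Trpv5, 198 held both and 455 held neither. The median UMI counts of the first and second set were alike, at 2514 to 3962 and 2557 to 3248 by library. In each of 9 libraries the Trpv5-only nuclei had the higher level of Klk1 (median over libraries 2370 against 782 CPM), of Vdr, the vitamin D receptor (667 against 212 CPM), of Tfap2b (448 against 290 CPM) and of Kcnj1 (425 against 332 CPM). S100g was higher in Trpv5-only nuclei in 8 of 9 libraries (798 against 198 CPM). Among the rule genes, Slc8a1 was higher in them in 9 of 9 libraries (23662 against 5419 CPM).

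Water transport genes ran the opposite way. Aqp2-only nuclei had the higher level in 9 of 9 libraries for Fxyd4 (396 against 44.8 CPM), for Aqp3, a basolateral water channel (237 against 60.7 CPM), for Avpr2, the vasopressin receptor (115 against 58.0 CPM), and for Hsd11b2 (775 against 517 CPM). The ENaC subunits did not follow the split, with Scnn1b higher in Trpv5-only nuclei in 5 libraries and lower in 4, and Scnn1g higher in 4 and lower in 5. The 9 libraries share 3 preparations and the split was made on these nuclei, so no test is given. In fresh cells 9 of 364 members held Trpv5 without Aqp2, none of them in replicate 3. In the 2 libraries with both sets, Klk1 (85811 against 61358 CPM) and Vdr (704 against 257 CPM) were higher in Trpv5-only cells in both, whereas S100g (14580 against 23815 CPM) and Kcnj1 (332 against 478 CPM) were higher in Aqp2-only cells in both.

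**Figure D2:**
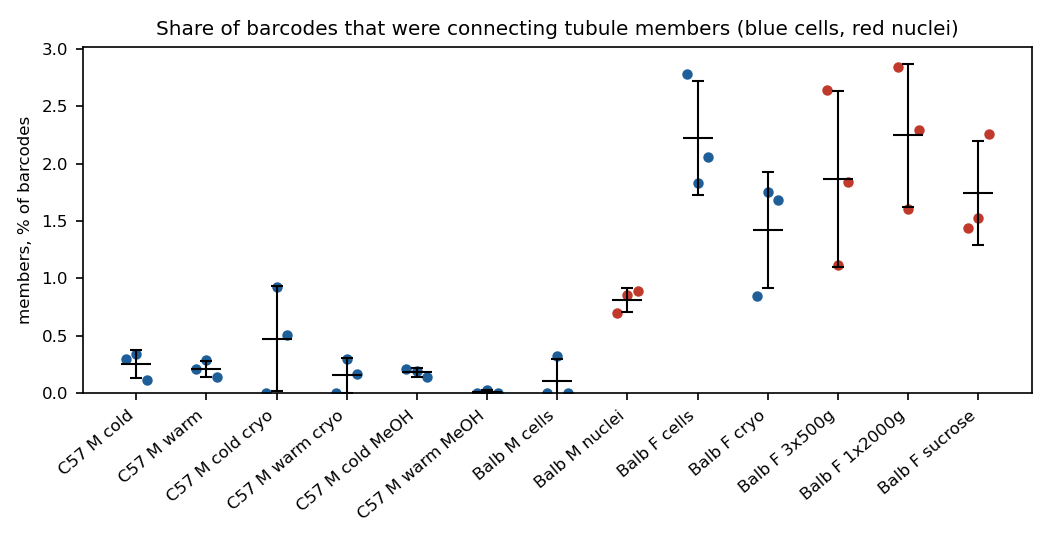
Share of barcodes that were members (y axis, %) in each 10x library, by condition. Points are libraries (blue cells, red nuclei), and bars are the mean ± SD of 3. Female Balb/c libraries sit between 0.843% and 2.85%, and C57BL/6J libraries at or below 0.921%.

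Most members came from the female kidneys. Female Balb/c libraries held 1891 members (86.2% of all), male Balb/c libraries 203 and C57BL/6J libraries 99. Female fresh cells held members at 2.22% ± 0.50 of barcodes (SD, n = 3), and the cryopreserved cells at 1.43% ± 0.51. The libraries stood at 2.78%, 1.83% and 2.06% fresh and at 0.843%, 1.75% and 1.68% cryopreserved, so that the groups did not overlap (exact two-sided permutation test p = 0.1, the smallest that 3 against 3 libraries allow). Proximal barcodes went from a mean of 28.6% fresh to 6.22% cryopreserved, so the share of members among non-proximal barcodes fell by more than these values show. The 3 nuclei protocols gave 1.87% ± 0.77 (SN_FANS_3x500g), 2.25% ± 0.62 (SN_FANS_1x2000g) and 1.74% ± 0.45 (SN_sucrose). Libraries overlapped between these protocols, and between SN_FANS_3x500g nuclei and fresh cells (exact permutation p = 0.2 to 0.9). With at least 2 UMIs of Calb1 required, SN_FANS_3x500g nuclei held 0.802% members and fresh cells 2.09%, a difference of -1.29 percentage points without an overlap (exact permutation p = 0.1, the smallest possible).

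In male Balb/c kidney the nuclei libraries held 0.697%, 0.852% and 0.894% members, and the cell libraries 0%, 0.322% and 0% (exact permutation p = 0.1, the smallest possible). All 10 male Balb/c member cells came from replicate 2. For counting error only, a count of 0 allows a share of up to 0.122% in replicate 1 and 0.0839% in replicate 3. The authors kept only genes detected in at least 10 cells of a sample. In replicates 1 and 3, 187 and 239 barcodes held Calb1 without the other rule genes, and none held Slc8a1 alone or with Calb1. If the filter dropped Slc8a1 there, no barcode could meet the rule and these bounds do not hold. Whether it did was not tested. With at least 2 UMIs of Calb1 required the means were 0.259% in nuclei and 0.107% in cells, and the libraries overlapped (exact permutation p = 0.3). With 1 UMI allowed, the nuclei against cells difference was 0.707 percentage points in males and -0.358 in females. The difference between the experiments did not pass an exact permutation test (p = 0.08, adjusted p = 0.16 over 4 such tests).

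In C57BL/6J kidney the cold fresh libraries held 27 members (0.250% ± 0.123) and the warm fresh libraries 26 (0.210% ± 0.0728; exact permutation p = 0.7). Warm suspensions fixed in methanol held 1 member in 5545 barcodes, and warm fresh suspensions 0.139% to 0.285% per library, so that the groups did not overlap (exact permutation p = 0.1, the smallest possible). Replicates 1 and 3 of this methanol group held 1451 and 782 barcodes, of which 104 and 67 held Calb1 without the other rule genes. No barcode of theirs held Slc8a1 alone or with Calb1, nor did any in replicate 1 of either cryopreserved group. The authors' filter on rarely detected genes can leave such a library without Slc8a1, and its part in these shares was not tested. The other storage groups overlapped with the fresh suspensions (exact permutation p = 0.4 to 0.7), with 20 members after cold dissociation and cryopreservation, 20 after cold dissociation and methanol, and 5 after warm dissociation and cryopreservation. The shares are of all barcodes, and proximal barcodes stood at a mean of 25.9% cold fresh and 0.168% cold cryopreserved. After warm dissociation they stood at 25.5% fresh and 0.0266% cryopreserved. A like share of all barcodes is therefore not a like share of the non-proximal barcodes.

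Several early response genes were counted in warm C57BL/6J members and hardly or not at all in cold ones. Fos, the immediate-early transcription factor, was counted 0 times in 74055 UMIs of the 27 cold fresh members, and 102 times in 150281 UMIs of the 26 warm fresh members, where 14 members held it. The warm libraries held 26, 51 and 25 Fos UMIs and the cold libraries none. Set against 3 counts as the floor of the summed cold libraries, Fos was at least 16.8-fold higher per UMI after warm dissociation. Junb, a partner in the same AP-1 complex, was counted 21, 42 and 20 times in the warm libraries and not at all in the cold ones, and was at least 13.6-fold higher. Egr1, another immediate-early factor, was counted 15, 19 and 5 times against 0 (at least 6.41-fold), and Jun 10, 24 and 19 times against 1 UMI in all. Fosb was counted 22 times against 0 (at least 3.61-fold). Atf3 and Dusp1 were counted 6 and 7 times against 0. Against the same floor their bounds were 0.986-fold and 1.15-fold, so these counts were too low to show a clear rise. Ier3 did not separate the groups, with 2, 16 and 7 UMIs in the warm and 0, 2 and 7 in the cold libraries.

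Cryopreserved C57BL/6J members held Fos too. After warm dissociation and cryopreservation 4 of 5 members held 93 Fos UMIs (30 and 63 by library, replicate 1 having no member) in 18364 UMIs. After cold dissociation and cryopreservation 4 of 20 members held 15 Fos UMIs, 14 of them in replicate 2. Of the 5 warm cryopreserved members 4 held 2 or more genes of intercalated cells, as did 6 of the 20 cold cryopreserved ones. The part of such members in the Fos counts was not tested. After cold dissociation and methanol Fos was at 0 in 43720 UMIs.

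The 250 bases before the start of each of the 2 genes called below are shown because both rose together. TGACG, the core letters of the cyclic AMP response element, is in capitals (RefSeq, GRCm38.p6). Fos lies on chr12:85473890-85477273 on the plus strand with its window at chr12:85473640-85473889, and Junb on chr8 on the minus strand with its window at chr8:84978749-84978998.
Fos: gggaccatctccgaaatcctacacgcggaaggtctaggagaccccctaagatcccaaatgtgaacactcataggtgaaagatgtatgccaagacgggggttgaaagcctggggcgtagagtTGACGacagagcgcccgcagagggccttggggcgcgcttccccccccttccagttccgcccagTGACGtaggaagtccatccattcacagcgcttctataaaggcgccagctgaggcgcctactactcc
Junb: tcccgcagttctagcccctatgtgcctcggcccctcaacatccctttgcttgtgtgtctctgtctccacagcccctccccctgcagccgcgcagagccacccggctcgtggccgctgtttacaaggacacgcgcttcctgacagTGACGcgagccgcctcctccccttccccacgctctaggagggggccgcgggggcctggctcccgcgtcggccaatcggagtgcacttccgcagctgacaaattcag
The letters begin 129 and 66 bases before the start in Fos and 106 bases before it in Junb. On either strand they occur in 17.8% of 32851 promoters of this length, and a match is a description of the letters and not a site.

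Member sums of these C57BL/6J libraries, which held 4 to 17 members, were also fitted across 308 genes with edgeR, and 4 genes (1.3%) passed an adjusted p under 0.05. Of the stress genes, a list the study chose from genes induced in its warm samples, 5 were tested. Fos and Junb rose (edgeR adjusted p = 3.32e-08 and 5.8e-07) and none fell, and 0.974% of all genes were called higher. Fos and Junb were at 0 UMIs in every cold library, so they could enter the fit only through the warm libraries. The list and the filter thus favour rises, and these calls are not independent support. The gene model Gm42418 stood at 236, 101 and 111 CPM cold and 379, 696 and 590.3 CPM warm (adjusted p = 0.00476), and the hemoglobin Hbb-bs fell by 1.49 ± 0.37 (log2 ± SE) with groups that overlapped. The calls of Fos and Junb held without each library in turn, and that of Gm42418 was lost without cold replicate 1, cold replicate 3 or warm replicate 3. Of the connecting tubule identity genes 5 were tested and none passed. Intercalated cell genes moved with the same groups: they took 0.022% to 0.040% of the UMIs of cold members and 0.085% to 0.279% of those of warm members, and 9 of 26 warm members held 2 or more of them against 3 of 27 cold members. Their part in these results was not tested.

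**Figure D3:**
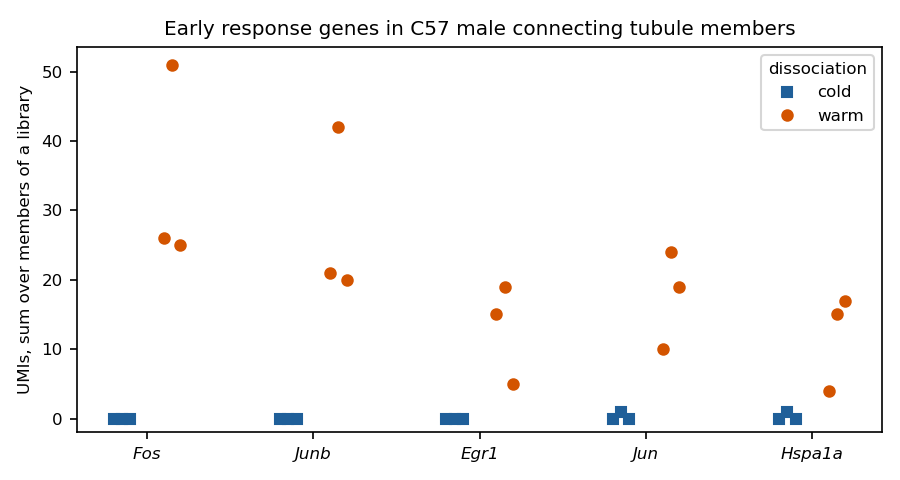
UMIs summed over the members of each C57BL/6J fresh library (y axis) for 5 early response genes after cold (squares) and warm (circles) dissociation. Fos, Junb and Egr1 were at 0 in all 3 cold libraries and between 5 and 51 in the warm ones.

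Bulk suspensions of the same C57BL/6J experiment held more of the segment's transcripts after warm dissociation. Of the 9 connecting tubule identity genes, 8 rose and none fell, against 8.65% of all 14098 genes called, 5.39% higher and 3.26% lower. Trpv5 stood at 27.9, 25.6 and 17.9 CPM in cold and 50.9, 58.9 and 66.4 CPM in warm suspensions (log2 change 1.27 ± 0.14, edgeR adjusted p = 0.000145). Scnn1g rose by 1.45 ± 0.16 (adjusted p = 0.000184), Hsd11b2 by 1.24 ± 0.19 (adjusted p = 0.00157), S100g by 0.96 ± 0.12 and Klk1 by 0.56 ± 0.10. In each of these genes every warm library was above every cold one, and 26.5% of all genes did not overlap between the groups. The calcium pump Atp2b1 was not called (-0.14 ± 0.07, adjusted p = 0.248). The rule genes stood at 318 to 355 CPM (Calb1) and 211 to 303 CPM (Slc8a1) in cold suspensions, and at 507 to 806 CPM and 425 to 533 CPM in warm ones. In bulk samples, more cells of a type and more RNA per cell cannot be told apart.

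Other distal lists moved in the same bulk comparison, in which 5.39% of all genes were called higher and 3.26% lower. Of 25 genes of ENaC, potassium secretion and the aldosterone response 16 rose and none fell, among them Nr3c2 (0.80 ± 0.13), Scnn1a (0.80 ± 0.08) and Per1, a clock gene that aldosterone induces (1.95 ± 0.14). Of the study's 17 stress genes, chosen from those induced in its warm samples, 15 rose, with a median of 3.31. Whether the rise of Per1 belongs with theirs was not tested. Of 12 intercalated genes 10 rose, and of 12 principal cell genes 6 rose, among them Avpr2 (1.29 ± 0.16). Of 18 proximal genes 3 fell and none rose. The calls of the calcium and magnesium channels Trpv6 (1.27 ± 0.31) and Trpm6 (0.62 ± 0.16) were lost without cold replicate 1 or 3 or warm replicate 3, and without any 1 cold replicate, in that order.

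Intact female Balb/c kidney held less of these transcripts than the cold suspension. Of the 9 identity genes 6 fell and none rose, against 20% of all 16534 genes called, 12.1% higher and 7.89% lower. Klk1 stood at 825, 806 and 807 CPM in intact kidney and 1426, 1243 and 1179 CPM in suspension (-0.65 ± 0.08, edgeR adjusted p = 0.000358). Scnn1b fell by 0.79 ± 0.12 on the log2 scale, Trpv5 by 0.71 ± 0.11, Hsd11b2 by 0.68 ± 0.09 and S100g by 0.56 ± 0.11, all with adjusted p under 0.05 and no overlap between libraries, which held for 36.5% of all genes. Of 18 genes of calcium and magnesium transport 6 fell, among them Atp2b4 (-0.36 ± 0.05), and of 25 ENaC and potassium genes 8 fell. Of 12 principal cell genes 5 fell, among them Kcne1 (-0.77 ± 0.11), and 2 rose, among them Aqp4, a basolateral water channel (1.90 ± 0.15). Lists of other cells moved too. All 11 mitochondrial genome genes and all 4 hemoglobin genes tested fell, as did 8 of 9 macrophage genes (the other rose) and 8 of 10 lymphocyte genes, whereas 8 of 10 endothelial and 6 of 7 fibroblast genes rose. Their part in the changes above was not tested. In the intact male Balb/c kidneys, which have no matched suspension in bulk, Klk1 stood at 576, 554 and 586 CPM and Trpv5 at 14.3, 9.88 and 13.3 CPM.

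Cryopreservation of female cells went with lower levels of Klk1 and S100g in the members. Fitted on 3583 genes with edgeR, 216 (6.03%) passed an adjusted p under 0.05, of which 124 were higher (3.46%) and 92 lower (2.57%). With all UMIs of the members as library size in place of TMM, 97 were higher and 100 lower. Fitted changes are log2 after TMM scaling on the genes the libraries share, and so are not the ratio of the CPM values.

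Klk1 stood at 74356, 54860 and 79973 CPM in fresh and 16994, 23522 and 13922 CPM in cryopreserved members. It fell by 1.88 ± 0.25 (log2 ± SE, edgeR adjusted p = 0.00014), and every cryopreserved library was below every fresh one, as groups did not overlap in 28% of all genes. S100g stood at 22766, 25701 and 27213 CPM fresh and 9455, 9753 and 5213 CPM cryopreserved, and fell by 1.57 ± 0.24 (adjusted p = 0.000473). The calls of both held without each library in turn. Of the 8 identity genes tested, 3 fell and none rose, against the 2.57% above. The third was Kcnj1 (-0.73 ± 0.18, adjusted p = 0.0207). Kl, the FGF23 co-receptor of the distal tubule, fell by 0.83 ± 0.18, and the sodium pump subunits Atp1b1 and Fxyd2 by 0.66 ± 0.17 and 1.01 ± 0.24. The calls of Kcnj1, Kl, Atp1b1 and Fxyd2 were lost without 4, 2, 5 and 3 of the 6 libraries, each left out alone. Among the rule genes, Calb1 stood at 2712, 4658 and 5600 CPM fresh and 969, 2303 and 1397 CPM cryopreserved.

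Some genes of principal cells stood higher. Of 9 principal cell genes tested 4 rose and none fell, against 3.46% of all genes: Fxyd4 (1.43 ± 0.30), Avpr2 (1.04 ± 0.25), Apela (1.02 ± 0.29) and Aqp3 (0.88 ± 0.22). Fxyd4 stood at 634, 694 and 667 CPM fresh and at 2019, 583 and 2741 CPM cryopreserved, so that its groups overlapped, as did those of Aqp3 and Apela. The calls of these 4 genes were each lost without 3 or 4 of the 6 libraries. Nedd4l, the ubiquitin ligase that removes ENaC from the membrane, stood at 28.3, 30.3 and 33.1 CPM fresh and 103, 87.5 and 78.1 CPM cryopreserved (1.58 ± 0.33, adjusted p = 0.00623), and lost its call without 4 of the 6 libraries. Of 20 ENaC and potassium genes 2 rose and 4 fell, with a median of -0.02. Of 16 transcription factors of the distal nephron none passed. Hsd11b2 stood at 2106, 2516 and 2719 CPM fresh and 2087, 2085 and 3088 CPM cryopreserved, and the groups overlapped.

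Markers of other cells moved with cryopreservation. Of 12 intercalated genes 7 passed the filter on low counts, and 6 of these rose, with a median change of 3.33. Of all genes, 3.46% were called higher. Genes near the floor in fresh members, such as Foxi1, could pass that filter through the cryopreserved libraries alone. The 6 of 7 and the median are therefore not values of the whole list. Atp6v1g3, a subunit of the vacuolar proton pump, stood at 24.6, 104 and 119 CPM fresh and 1654, 1356 and 720 CPM cryopreserved (4.02 ± 0.35, adjusted p = 6.65e-07), and Foxi1, their master transcription factor, at 0, 11.5 and 9.18 CPM fresh and 79.8, 58.3 and 60.7 CPM cryopreserved. The summed intercalated list took 0.047% to 0.062% of member UMIs in fresh and 0.199% to 0.316% in cryopreserved libraries. Members with 2 or more intercalated genes were 54 of 364 fresh (13.8% to 17.6% by library) and 18 of 60 cryopreserved (25.0% to 33.3%), and their median UMI counts were above those of the other members in all 6 libraries.

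Of 18 proximal genes 10 passed the filter on low counts, and 7 of these fell, with a median of -2.66. Of all genes, 2.57% were called lower. Genes near the floor in cryopreserved members could pass that filter through the fresh libraries alone. The 7 of 10 and the median are therefore not values of the whole list. The summed proximal list went from 0.139% to 0.296% of UMIs fresh to 0.024% to 0.056% cryopreserved.

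Without the members that held 2 or more intercalated genes, 65 genes passed. The minimum of 10 members a library was not applied to this fit. Cryopreserved replicate 1 was kept in it although it then fell below that minimum. Klk1 was still called (-1.26, adjusted p = 0.0303), as were Aqp3 (1.29), Avpr2 (1.44), Fxyd4 (1.69) and Apela (1.50). The calls of S100g (-1.10, adjusted p = 0.0675), Kcnj1 (-0.37, adjusted p = 0.348), Kl (-0.43, adjusted p = 0.262), Atp1b1 (-0.40, adjusted p = 0.290), Fxyd2 (-0.89, adjusted p = 0.0930) and Nedd4l (1.54, adjusted p = 0.0825) were lost. In the main fit, which kept all members, the count of calls was 104, 92 or 75 without fresh replicate 1, 2 or 3. It was 107, 208 or 126 without cryopreserved replicate 1, 2 or 3.

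Some stress and mitochondrial genes also stood higher after cryopreservation, where 3.46% of all genes were called higher. Of 17 stress genes, a list the study chose from genes induced in its warm samples, 10 were tested. Of these 3 rose, among them Junb (1.92 ± 0.43) and Jun (1.52 ± 0.37). Genes near the floor in fresh members could enter the fit through the cryopreserved libraries alone. Lars2, the mitochondrial leucyl-tRNA synthetase, stood at 22.2, 36.1 and 29.4 CPM fresh and 319, 241 and 286 CPM cryopreserved (3.30 ± 0.25, adjusted p = 9.18e-08). Of 13 mitochondrial genome genes 4 rose, among them mt-Atp8 (2.39 ± 0.24), and the median member held 27.8% to 33.3% mitochondrial UMIs fresh and 35.2% to 42.4% cryopreserved. Their part in the changes above was not tested.

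**Figure D4:**
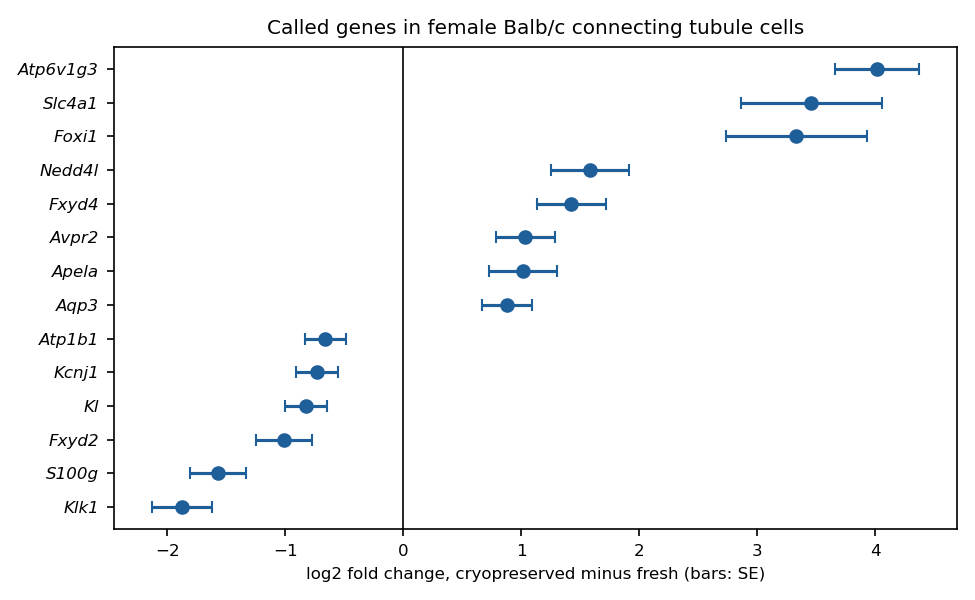
Fitted log2 change (x axis, cryopreserved minus fresh; bars are the standard error) of 14 genes in female Balb/c members, 3 libraries against 3. Klk1 (-1.88) and S100g (-1.57) lie lowest, and the intercalated genes Atp6v1g3 (4.02), Slc4a1 (3.46) and Foxi1 (3.33) highest.

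Methanol after cold dissociation was compared with fresh cells in C57BL/6J libraries that held 4 to 14 members. Of 197 genes tested 37 (18.8%) passed, 20 higher (10.2%) and 17 lower (8.63%), and with all UMIs as library size 48 were higher and 11 lower, with a shift of 0.418 in the median log2 change of all genes. None of 3 connecting tubule identity genes passed, and of 5 ENaC and potassium genes 1 fell, Wnk1, a kinase that regulates distal salt transport (-1.22 ± 0.27, edgeR adjusted p = 0.00409). Malat1, a nuclear noncoding RNA, stood at 37424, 51703 and 18432 CPM fresh and 12427, 12904 and 10083 CPM after methanol (-2.03 ± 0.34), without an overlap, as did 40.1% of all genes. Of 12 mitochondrial genome genes 9 fell and 1 rose, with a median of -1.37, and the median member held 31.4% to 36.3% mitochondrial UMIs fresh and 15.7% to 19.96% after methanol. All 4 hemoglobin genes rose, among them Hba-a1 (2.03 ± 0.33) and Hbb-bs (1.88 ± 0.39), as did all 3 proximal genes tested, among them Kap (1.85 ± 0.40). The part of these lists in the other changes was not tested. Klk1 stood at 59517, 37288 and 55852 CPM fresh and at 94492, 27759 and 59263 CPM after methanol, and the groups overlapped.

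Member nuclei and member cells of the females differed in most genes. Of 7633 genes tested 6039 (79.1%) passed, 3211 higher (42.1%) and 2828 lower (37%) in SN_FANS_3x500g nuclei. Cells were counted on exonic reads and nuclei on exonic and intronic reads, and the genes called higher in nuclei span a median of 82.1 kb in the genome, against 12.4 kb for those called lower. With all UMIs of the members as library size, 4653 were higher and 1809 lower, and the median of all genes moved by 1.16 on the log2 scale, so the genes named below as changed are those called in the same direction under both scalings, and counts are with TMM.

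The secreted and cytoplasmic products that dominated member cells were low in nuclei. Klk1 stood at 293, 379 and 330 CPM in nuclei against the 54860 to 79973 CPM of cells (-8.89 ± 0.31, edgeR adjusted p = 3.14e-13), and S100g at 297, 201 and 388 CPM (-7.56 ± 0.29). Of 15 calcium and magnesium transport genes 9 fell and 3 rose, against backgrounds of 37% and 42.1%. Of 22 ENaC and potassium genes 11 fell and 6 rose, and Fxyd2 fell by 5.51 ± 0.21. Hsd11b2 stood at 330, 691 and 401 CPM in nuclei and 2106, 2516 and 2719 CPM in cells (-3.58 ± 0.22). Kcnj1 fell by 1.86 ± 0.17 and Aqp2 by 2.74 ± 0.16.

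Some regulators were higher in nuclei. Nr3c2, the mineralocorticoid receptor, stood at 1493, 2111 and 2281 CPM in nuclei and 39.4, 27.4 and 25.7 CPM in cells (4.77 ± 0.23). Nedd4l stood at 1723, 1486 and 1570 CPM against 28.3 to 33.1 CPM (4.54 ± 0.19). Klhl3, an adaptor for WNK kinase degradation, rose by 2.64 ± 0.26. Of 21 transcription factors 10 rose, among them Esrrg (6.09 ± 0.26), Mecom (3.63 ± 0.22), Sim1 (3.06 ± 0.22) and Pax2 (2.40 ± 0.24), and 7 fell, against the backgrounds of 42.1% and 37%. Their median change was -0.15, against 0.19 for all genes, so the list as a set was not higher in nuclei. The genomic spans of Nr3c2 (346 kb), Nedd4l (330 kb) and Esrrg (606 kb) are long beside those of Klk1 (4.26 kb) and S100g (2.61 kb).

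For the ENaC subunits and Trpv5 the direction was not settled. CPM and the fit without TMM divide by all UMIs, which are not alike in cells and nuclei. The median member cell held 27.8% to 33.3% mitochondrial UMIs by library, whereas the authors removed mitochondrial genes from nuclei. Scnn1g stood at 493, 563 and 489 CPM in nuclei and 234, 222 and 250 CPM in cells, yet its fitted change was -0.05 ± 0.15 with TMM and 1.13 without. Trpv5 stood at 86.5, 69.5 and 112 CPM in nuclei and 50.5, 56.2 and 36.7 CPM in cells, with fitted changes of -0.26 ± 0.25 and 0.90. Scnn1b was not called with TMM (0.26 ± 0.16) and was called without it (1.44). When every barcode was thinned to 500 UMIs, Trpv5 was detected in 2.25% to 3.12% of member cells and 3.53% to 4.37% of SN_FANS_3x500g nuclei, and Scnn1g in 10.4% to 12.4% and 18.8% to 25.9%. Klk1 was detected in 84.0% to 85.4% of thinned cells and 9.38% to 14.8% of thinned nuclei. The unthinned shares of Klk1 were 89.7% to 94.5% and 36.2% to 40.6%, and groups did not overlap in 84.7% of all genes tested.

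Proximal genes stood higher in member nuclei, 11 of 17 against 4 lower, among them Lrp2 (2.37 ± 0.37) and Slc34a1 (2.06 ± 0.26), and their summed list took 0.455% to 0.773% of nuclear UMIs against 0.139% to 0.296% in cells. Slc26a4, a type B intercalated exchanger, stood at 253, 108 and 336 CPM in nuclei and 6.15, 0 and 5.51 CPM in cells (4.73 ± 0.54). Their part in the results above was not tested. Of 14 genes of the study's own stress list 10 fell and 2 rose, among the falls Hsp90ab1 (-6.29 ± 0.20), and of 14 junction genes 9 fell and 3 rose, among the falls Cldn8, a distal claudin (-4.69 ± 0.23), against the 37% and 42.1% above.

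**Figure D5:**
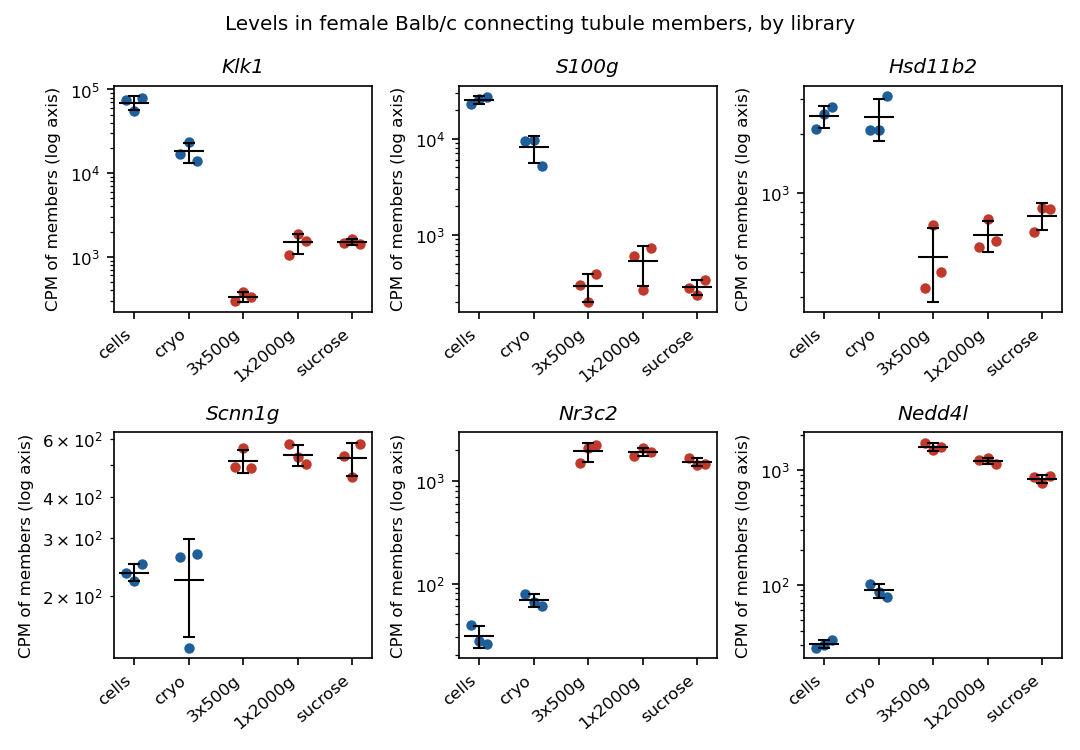
Levels (y axes, CPM on log axes) of 6 genes in the members of each female Balb/c library, by preparation. Points are libraries (blue cells, red nuclei) and bars the mean ± SD of 3. Klk1 and S100g are highest in fresh cells, Nr3c2 and Nedd4l in nuclei, and Klk1 is lowest in SN_FANS_3x500g nuclei.

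The nuclei protocols differed in Klk1. It stood at 293, 379 and 330 CPM in SN_FANS_3x500g, 1052, 1873 and 1525 CPM in SN_FANS_1x2000g and 1463, 1626 and 1411 CPM in SN_sucrose members. The changes against SN_FANS_3x500g were 2.23 ± 0.18 (edgeR adjusted p = 2.16e-05) and 2.35 ± 0.18 (adjusted p = 2.48e-05), and held without each library in turn and in members with another marker. Klk1 moved in neighbouring cells too: it was detected in 13% to 22% of proximal barcodes in SN_FANS_3x500g libraries, 39% to 51% in SN_FANS_1x2000g and 32% to 34% in SN_sucrose. How much of the members' level came from free RNA was not tested.

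In SN_FANS_1x2000g against SN_FANS_3x500g members, 466 of 7814 genes (5.96%) passed, 325 higher (4.16%) and 141 lower (1.8%), and 274 and 248 with all UMIs as library size. Of 15 calcium and magnesium transport genes 3 rose and none fell: Casr, the calcium-sensing receptor (0.73 ± 0.19, adjusted p = 0.0392), Calm2 (0.78 ± 0.17) and Klk1. Of 23 ENaC and potassium genes Fxyd2 rose (0.98 ± 0.17) and none fell. The calls of Casr and Calm2 were lost in members with another marker. Of 9 identity genes only Klk1 rose. S100g was not called (0.92 ± 0.31, adjusted p = 0.105). The largest rises included hemoglobin Hbb-bs (3.67 ± 0.49), Kap (3.21 ± 0.31) and Chchd10, a mitochondrial protein (2.69 ± 0.27), and falls were seen in the proximal genes Acot12 (-2.30 ± 0.32) and Slc22a27 (-2.17 ± 0.55). Slc34a1 fell by 0.99 ± 0.24, but was not called in members with another marker (-0.35). Genes called higher spanned a median of 10.4 kb, and those called lower 101 kb. The count of calls was 194, 206, 307 or 230 without SN_FANS_3x500g replicate 1 or 3 or SN_FANS_1x2000g replicate 1 or 3.

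In SN_sucrose against SN_FANS_3x500g members, 563 genes (7.21%) passed, 379 higher (4.85%) and 184 lower (2.35%), and with all UMIs as library size the split turned to 235 higher and 485 lower, with a shift of -0.163 in the median of all genes. Of 9 identity genes 4 rose and none fell: Klk1, Hsd11b2 (0.91 ± 0.22), Kcnj1 (0.65 ± 0.16) and Tfap2b (0.60 ± 0.15). Apart from Klk1 these calls were lost with all UMIs as library size and in members with another marker, as were those of Casr (0.79 ± 0.20) and Aqp2 (0.50 ± 0.13). Nedd4l stood at 868, 765 and 885 CPM in SN_sucrose and 1723, 1486 and 1570 CPM in SN_FANS_3x500g members, and fell by 0.76 ± 0.13, a call kept under every alternative run. Its groups did not overlap, as in 29.7% of all genes. Malat1 stood at 237645, 231701 and 252072 CPM against 118609, 106847 and 111464 CPM (1.27 ± 0.11), and Hsp90ab1 rose by 2.12 ± 0.20. Proximal carriers fell, Slc5a8 by 2.70 ± 0.62 and Slc5a10 by 2.44 ± 0.54, but neither was called in members with another marker. The count of calls was 172 or 119 without SN_FANS_3x500g replicate 1 or 3, 353 without SN_FANS_1x2000g replicate 3, and 211, 172 or 187 without SN_sucrose replicate 1, 2 or 3.

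SN_sucrose and SN_FANS_1x2000g members were closest. In them 40 of 7814 genes (0.512%) passed, 25 higher (0.32%) and 15 lower (0.192%), and 868 had an unadjusted p under 0.05. None of 9 identity genes passed, and of 23 ENaC and potassium genes Fxyd2 fell (-0.92 ± 0.17). Uqcr11 (-2.22 ± 0.43) and Cox5b (-1.60 ± 0.30), of the respiratory chain, Atp5e, of ATP synthase (-1.57 ± 0.28), and Kap (-1.50 ± 0.29) fell in SN_sucrose members. Pnn, a splicing factor, stood at 261, 231 and 310 CPM against 87.6, 100 and 93.6 CPM (1.61 ± 0.18, adjusted p = 0.00285). The number of calls moved with single libraries. Without SN_FANS_1x2000g replicate 1, 2 or 3 there were 1, 25 and 0, without SN_sucrose replicate 1, 2 or 3 there were 1, 1 and 2, and without SN_FANS_3x500g replicate 2 or 3, which share the estimate of the spread, 62 and 14.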

How the data were processed

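The authors counted UMIs per gene and barcode with Cell Ranger 2.1.1 on mm10, cells on exonic reads and nuclei on exonic and intronic reads, and deposited filtered count tables after removing empty droplets and barcodes with too few or too many genes, and mitochondrial genes from nuclei. They also removed genes detected in too few cells of a sample, so a rule gene can be absent from a library. In male Balb/c cell replicate 2 the median member held 0% mitochondrial UMIs, as in nuclei. Whether mitochondrial genes were removed from the male Balb/c cells too was not tested. Bulk reads were aligned with STAR 2.6.1a and counted with featureCounts, and the deposited bulk counts are not normalized. Whether strand was used is not given in the sources used here.

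Members were found by the rule in 39 libraries of 983522 to 35170947 UMIs. Bulk samples held 2326998 to 31093949 counts. Members, gene lists and tests were chosen with earlier results of these data known. Counts were summed over the members of each library with at least 10 members and fitted with edgeR 4.0.16 (R 4.3.3, TMM, filterByExpr, quasi-likelihood test). A gene was called at a Benjamini-Hochberg adjusted p under 0.05 over all genes tested. The 3 female nuclei protocols shared a fit. Few C57BL/6J libraries reached 10 members, so a minimum of 3 was set after seeing the data. The cryopreservation fit without members of 2 or more intercalated genes applied no minimum. The 4 rule genes were never counted as calls. Named genes were those of the fixed lists and up to 10 in each direction with the largest called change and no overlap. The tests were checked on simulated data. The 3 libraries of a group come from different mice, whereas stored libraries are aliquots of suspensions that were also run fresh. Shares were tested by exact permutation of the libraries (two-sided). No source used here pairs the female fresh and stored libraries, so that fit has no block. Barcode names of the C57BL/6J libraries give the mouse, which pairs them, and a blocked fit was run there. The levels in neighbouring populations were not tested. Alternatives were DESeq2 1.42.0, other scalings, no filter on low counts, other member rules and leaving out each library. No doublet caller was run. Intervals and floors cover counting error only. Promoters are from RefSeq (GRCm38.p6) and positions from GENCODE M21. A few genes are not reported here.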

Additional observations from a re-analysis of the deposited data

How the results depend on the processing

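The results were recomputed under the alternatives named in the processing summary. Of the gene results, 144 in all, 1604 recomputed values kept direction and call, 255 kept the direction and lost the call, 5 gained a call and 7 reversed. The cause of each change below was not tested. Shares reversed with every barcode thinned to 500 UMIs for warm against cold C57BL/6J cells (0.0218 percentage points), female SN_FANS_3x500g nuclei against cells (0.296) and SN_FANS_1x2000g against SN_FANS_3x500g (-0.0311). They also reversed for nuclei against cells with up to 1 UMI of a cotransporter allowed (0.358), and for SN_sucrose against SN_FANS_3x500g in members with another marker (0.191).

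Leaving out each library gave share differences, in percentage points, of -0.110 to 0.00640 for warm against cold, 0.00150 to 0.462 (cold) and -0.129 to 0.0210 (warm) for C57BL/6J cryopreservation, -0.139 to -0.0231 (cold) and -0.236 to -0.163 (warm) for methanol, -0.995 to -0.507 for female cryopreservation, 0.653 to 0.814 and -0.748 to 0.0174 for male and female nuclei against cells, 0.00659 to 0.772 for SN_FANS_1x2000g and -0.498 to 0.267 for SN_sucrose against SN_FANS_3x500g, and -0.827 to -0.205 for SN_sucrose against SN_FANS_1x2000g.

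In nuclei against cells Scnn1g reversed with all UMIs as library size (1.13), with at least 2 UMIs of Calb1 (0.39) and in members with another marker (0.33), and Trpv5 likewise (0.90, 0.47 and 0.12). Hnf4a reversed in SN_sucrose against SN_FANS_3x500g with at least 2 UMIs of Calb1 (0.16).

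The cryopreservation calls numbered 431 with no filter and 75 to 208 without single libraries. They numbered 120 without members above the 95th percentile of UMIs, a fit that drops cryopreserved replicate 1, left with 9 members. They numbered 65 without members of 2 or more intercalated genes, a fit that keeps this replicate although it falls below the minimum. SN_FANS_1x2000g against SN_FANS_3x500g gave 270 calls with DESeq2, 870 with no filter, 150 with at least 2 UMIs of Calb1 and 194 to 674 without single libraries. SN_sucrose against SN_FANS_3x500g gave 296 at an absolute log2 change of 1 or more, 242 with DESeq2, 921 with no filter, 131 with at least 2 UMIs of Calb1 and 119 to 779 without single libraries. SN_sucrose against SN_FANS_1x2000g gave 25, 22, 161 and 14 in that order, 61 in members with another marker and 0 to 62 without single libraries. Bulk warm against cold gave 329 at that change, 1908 with no filter and 772 to 921 without single libraries, and bulk intact against suspension 905 and 2382 to 3083. Nuclei against cells gave 5896 to 6384. Warm against cold C57BL/6J members gave 9 with all UMIs as library size and 2 to 22 without single libraries, and methanol 23 with DESeq2, 59 with all UMIs, 19 with no filter and 21 to 40.

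With a replicate block by mouse, 5 genes were called for warm against cold (Fos 7.70) and 38 for methanol, and sign-flip tests of the paired shares gave p = 0.5, 0.5, 1, 0.5 and 0.25, an exact test whose smallest value is 0.25. Other C57BL/6J fits and the male nuclei fit were not run, as fewer than 2 libraries a group held enough members. The C57BL/6J libraries that had any members held 1 to 17 of them, which limits the depth of those results.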
